A study of Mus musculus with 8 samples.

Results

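The comparison described here set T29 cells that carried the Ikaros fusion Ik1ER against T29 cells that carried the vector alone, both after 4-hydroxytamoxifen (4OHT). T29 is a mouse thymic lymphoma line, and the series text describes it as deficient in Ikaros. The Ik1ER group was transduced with MigR1-Ik1ER and the control group with MigR1, a retroviral vector, and both received 100 nM 4OHT for 24 h. Members were chosen by sample title, which gave 4 of the 8 arrays of the series, 2 per group. The other 4 arrays, 2 per line, came from the same lines treated for 24 h with ethanol, the solvent, and served here as the ethanol comparison. Both sides of the 4OHT comparison thus had the inducer and differed in the fusion, but they were also separate cell lines. Whether a line was a clone or a pool, and what drives the fusion beyond the vector, is not given in the labels. Nothing in the labels shows that a group's arrays stem from different cultures, and p-values therefore reflect spread among arrays that may be technical.

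Ikaros, the product of Ikzf1, is a DNA-binding zinc finger protein of lymphocytes and their precursors. It binds DNA through sites with a GGGAA core, recruits chromatin remodelling complexes such as NuRD, and acts as a tumour suppressor in developing T cells, where its loss goes with raised activity of Notch target genes. In a fusion with the hormone-binding part of the estrogen receptor, a protein is held inactive until 4OHT binds and lets it act in the nucleus. Developing thymocytes pass from a double negative stage without CD4 and CD8 to a double positive stage with both coreceptors, and then to mature single positive cells that leave the thymus.

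Values are log2 expression values from Affymetrix arrays, made with RMA, and all differences below are Ik1ER minus MigR1 on that scale. Between the 2 arrays of a line with 4OHT, log2 values differed over genes with an SD of 0.157 in MigR1 and 0.214 in Ik1ER cells. In the Ik1ER line both replicate 2 arrays stood apart from the rest. Their 3' minus 5' reading of the transferrin receptor, a gauge of transcript completeness, was 1.66 (ethanol) and 1.91 (4OHT), and 1.15 to 1.39 on the 6 remaining arrays. The hybridization controls read 8.86 on average on the 4OHT one and 9.41 to 9.54 elsewhere. Calls without those arrays are given below for the named genes. Calls with the 3' to 5' difference as a covariate are given in the closing section. The part of these readings in any result was not tested further. As a gauge of background, the highest mean among 27 Bacillus control probe sets was 5.27. All 8 measured T lineage markers exceeded it in Ik1ER cells and 7 of 8 in MigR1 cells, where the exception was Cd2, an adhesion receptor of T cells. Of 68 called members of the gene lists described below, 17 had a group mean under that control level with 4OHT. The lower group alone was under it for 14, and a difference from such a reading may understate the change. Both groups were under it for 3, Fas, Irf7 and Ms4a4c.

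As a check of the labels, 1 of the 2 probe sets of Ikzf1 read higher in the line that carried the fusion. With 4OHT that probe set read 8.16 and 8.51 on the MigR1 arrays and 11.27 and 10.45 on the Ik1ER arrays, a difference of 2.52 (SE 0.28, 5.75-fold, limma adjusted p = 0.00527 over all probe sets). The difference with ethanol was 2.75 (adjusted p = 0.274). The other Ikzf1 probe set, the brighter one on average and therefore the one that stood for the gene, differed by -0.17 (SE 0.13, adjusted p = 0.666). Esr1, which encodes the estrogen receptor, had 3 probe sets, of which the brightest differed by 0.64 (SE 0.28, adjusted p = 0.384) and by 1.11 with ethanol, and the other 2 by 0.03 and -0.05. With the mean over both probe sets in place of the brighter one, Ikzf1 differed by 1.18, the opposite direction (adjusted p = 0.000815). In MigR1 cells neither probe set read as low as the Bacillus controls.

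With 4OHT present on both sides, 928 of 18193 genes (5.1%) were called different between the lines, at a limma adjusted p under 0.05. Of these, 532 were higher in Ik1ER cells (2.92% of all genes) and 396 lower (2.18%). The differences were mostly moderate, with a median of 0.59 among genes called higher and -0.56 among genes called lower, and 141 reached an absolute log2 difference of at least 1 (85 higher and 56 lower). Over all genes the median difference was -0.0025. The 2 Ik1ER arrays lay on 1 side of both MigR1 arrays for all 928 called genes, which the call itself favours, and for 44.7% of all genes. In bulk RNA, fewer cells of a type and less RNA per cell cannot be told apart. The number of calls rested on the 2 MigR1 4OHT arrays: it was 293 without replicate 1 and 242 without replicate 2. It was 429 with only the 4 arrays of the comparison in the fit. Without both replicate 2 arrays of the Ik1ER line 594 genes were called, 271 higher and 323 lower, so that the larger side changed from higher to lower. Of the 89 called genes that the naming rule chose, 68 kept their calls without those arrays and 21 lost them, namely Ccng1, Cd3d, Egr1, Gimap1, Gimap8, Gzma, Ier2, Ikzf3, Irf1, Irf7, Itgb7, Lhfp, Ms4a4c, Myc, Polr1b, Ptprc, Rbl2, Rsad2, Sesn1, Socs1 and Tnfaip3. Across all settings that left out 1 array, 39 of the 89 kept their calls each time.

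With ethanol 0 genes were called between the same lines by limma (0.0%), and 955 (5.25%) had an unadjusted p under 0.05. With 4OHT 3232 genes (17.8%) had one. The median absolute difference over all genes was 0.073 with ethanol and 0.100 with 4OHT. A count of 0 does not show that the lines were alike with ethanol. An Ikzf1 probe set at 2.75 and Mycn at -0.92 were not called there, but were at 2.52 and -0.78 with 4OHT. Genes called higher with 4OHT had a median difference of 0.05 with ethanol, and genes called lower one of 0.03. The ethanol difference was above 0 for 354 of the 532 genes called higher (66.5%) and for 233 of the 396 called lower (58.8%), against 52.9% of all genes. In 36 of the 928 genes (3.88%) the ethanol difference had the same direction as that with 4OHT and was at least 50% of its size. The share over all genes was 33.3%. The 928 were chosen for their 4OHT difference, which by itself lowers this share. The test of the difference between the line differences called 229 genes (1.26%), 113 with a more positive difference under 4OHT and 116 with a more negative one. The 4OHT and the ethanol comparison share no array, while the test between them uses the arrays of both.

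**Figure D1:**
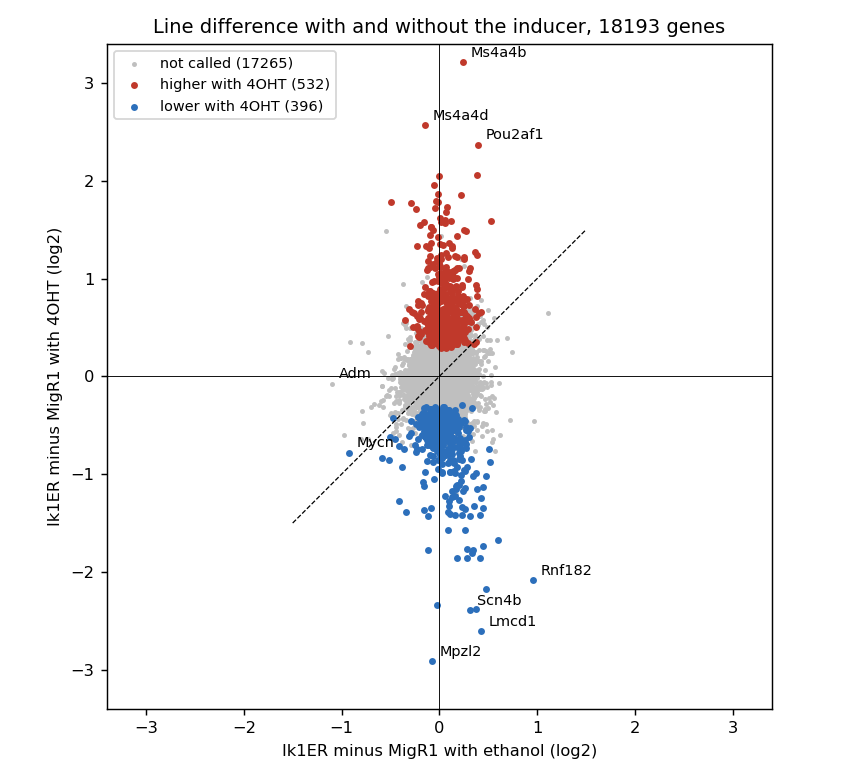
Each gene's log2 difference between Ik1ER and MigR1 cells with 4OHT (vertical axis) against its log2 difference with ethanol (horizontal axis), for all 18193 genes, with genes called higher or lower with 4OHT in colour and the dashed line where both differences are equal. The called genes spread along the vertical axis while their ethanol differences centre near 0, at medians of 0.05 for genes called higher and 0.03 for genes called lower.

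The largest rise was that of Ms4a4b, which encodes a T cell membrane protein with several spanning segments of the family that includes CD20. Ms4a4b read 5.50 and 5.57 on the MigR1 4OHT arrays and 8.64 and 8.87 on the Ik1ER 4OHT arrays, a rise of 3.22 (SE 0.14, 9.29-fold, limma adjusted p = 0.000149). Its relative Ms4a4d, which lies 4 coding genes further on chromosome 19, went from 3.29 and 3.55, below the highest Bacillus control mean, to 5.82 and 6.17 (2.57, SE 0.17, adjusted p = 0.000414). In both genes the gap between lines was many times the gap between arrays of a line, and with ethanol the lines differed by 0.24 and -0.14. Pou2af1, a transcriptional coactivator of octamer-binding factors best known from B cells, read 7.91 and 7.71 in MigR1 and 10.02 and 10.33 in Ik1ER cells (2.37, SE 0.16, 5.17-fold, adjusted p = 0.000414), with a difference of 0.40 in ethanol.

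The rest of the 15 largest rises were of mixed function. Myl4, a myosin light chain gene, rose by 2.05 (SE 0.17), from 7.29 and 7.22 to 9.12 and 9.48. Gimap7, which encodes an immune-associated GTPase, rose by 1.95 (SE 0.16), from 4.31 and 4.36 to 6.11 and 6.47. Surface molecules of T cells among them were Cxcr6, the receptor of the chemokine CXCL16, and Cd44, the hyaluronan receptor. Cxcr6 read 5.32 and 4.74 in MigR1 and 6.88 and 6.73 in Ik1ER cells (1.78, SE 0.20, adjusted p = 0.0027), and Cd44 went from 4.90 and 4.49 to 6.24 and 6.62 (1.74, SE 0.22, adjusted p = 0.00524). The transcription factor gene Maf rose by 1.71 (SE 0.22), and the potassium channel gene Kcna2 by 1.68 (SE 0.17). The others were the dynein light chain gene Dynlrb2 (1.87), the GTPase-activating protein gene Arhgap20 (1.86), the neuroserpin gene Serpini1 (1.79), the cation channel gene Mcoln3 (1.78), the transketolase-like gene Tktl1 (1.77) and Igfbp7 (1.72), which encodes a secreted binding protein of insulin-like growth factors. All 15 had both Ik1ER arrays above both MigR1 arrays, as their selection required, and their median difference with ethanol was -0.01, with 6 of 15 above 0. Of the 15, 14 stayed called without each of the 8 arrays in turn, while Mcoln3 was lost without MigR1 4OHT replicate 2 (adjusted p at most 0.0789). Igfbp7, Myl4, Maf and Mcoln3 each had a further probe set over that control level that was not called, with differences of 0.01, -0.22, 0.12 and 1.26.

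The largest fall was that of Mpzl2, which encodes an adhesion molecule of the immunoglobulin family found in the thymus. Mpzl2 read 8.89 and 9.16 on the MigR1 4OHT arrays and 6.19 and 6.04 on the Ik1ER 4OHT arrays, and fell by 2.91 (SE 0.16, 7.53-fold, limma adjusted p = 0.000149). All 3 of its probe sets were called, with differences of -2.91, -2.86 and -2.93. Lmcd1, which encodes a LIM domain protein that acts as a transcription cofactor, fell by 2.61 (SE 0.14), from 10.78 and 10.82 to 8.05 and 8.33. Scn4b and Scn2b, which encode auxiliary subunits of voltage-gated sodium channels, both fell. Scn4b went from 10.57 and 10.38 to 7.91 and 8.26 (-2.39, SE 0.13) and Scn2b from 9.88 and 9.93 to 8.17 and 8.10 (-1.77, SE 0.08), both at an adjusted p of 0.000149.

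Ifi202b and Ifi204, genes of the interferon-inducible p200 family that lie 4 coding genes apart on chromosome 1, both fell. The difference of Ifi202b was -2.34 (SE 0.33, adjusted p = 0.00758) and that of Ifi204 was -2.18 (SE 0.26, adjusted p = 0.00384). The probe set of Ifi202b carries the array maker's suffix for probes shared among transcripts. Whether it also reads related genes was not tested. Ifi204 read 5.85 and 5.31 in MigR1 cells, just above the highest Bacillus control mean, and 3.23 and 3.57 in Ik1ER cells. Rnf182, a ubiquitin ligase gene, fell by 2.08 (SE 0.18) with 4OHT and differed by 0.96 in the opposite direction with ethanol. Gfi1b, a transcriptional repressor gene known from erythroid and megakaryocytic cells, went from 7.68 and 7.60 to 5.80 and 5.94 (-1.77, SE 0.09). The small heat shock protein gene Cryab (-1.86), Uaca (-1.86), the interferon-inducible membrane protein gene Ifitm2 (-1.80), the orphan receptor gene Gpr83 (-1.78), the iron regulator gene Hfe (-1.74), Lhfp (-1.67) and the contactin-associated gene Cntnap2 (-1.57) complete the 15. With ethanol 12 of the 15 lay above 0, with a median of 0.34, while all 15 lay below 0 with 4OHT. Of the 15, 12 stayed called without each array in turn. Ifi202b and Cntnap2 were lost without MigR1 4OHT replicate 1 (adjusted p at most 0.0618 and 0.0519). Lhfp was lost without that array, without Ik1ER 4OHT replicate 1 or without both Ik1ER replicate 2 arrays (at most 0.0912).

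**Figure D2:**
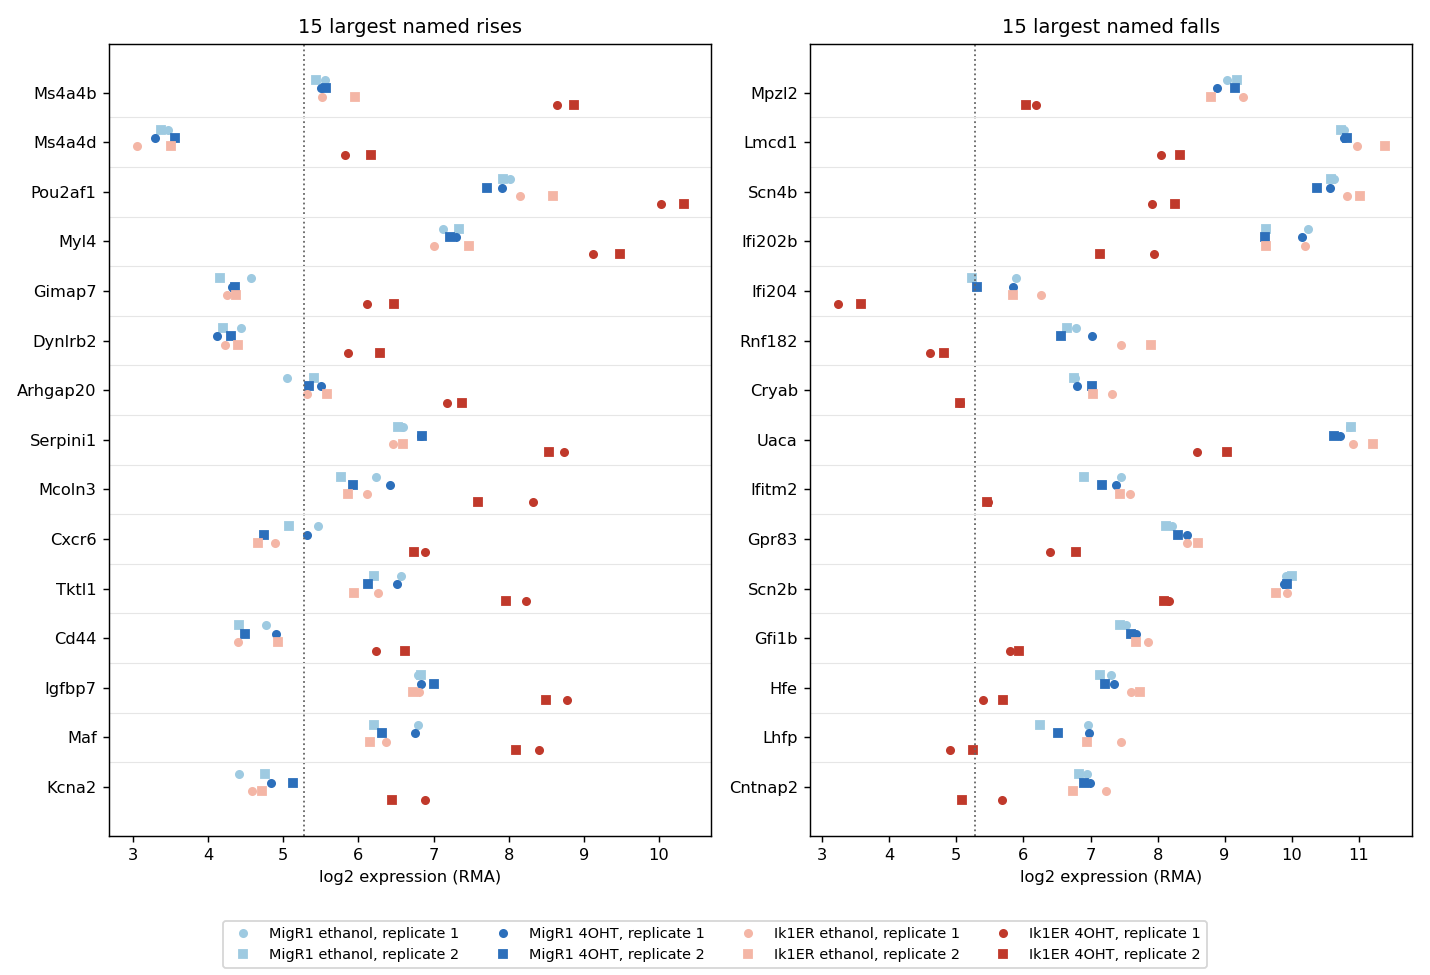
Log2 expression values on each of the 8 arrays (horizontal axis) for the 15 largest rises and the 15 largest falls (rows), coloured by line and treatment, with the dotted line at the highest Bacillus control mean (5.27). In the rises the 2 Ik1ER 4OHT arrays stand to the right of the MigR1 4OHT arrays, as in Ms4a4b at 8.64 and 8.87 against 5.50 and 5.57, and in the falls to the left.

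The promoters of these genes were read for the Ikaros core motif TGGGAA on either strand, as a description with no test. Windows ran from 250 bases before to 50 after the RefSeq start, and 14368 of the tested genes had one. The motif was present for 27.5% of these genes, for 22.4% of the 434 genes called higher and for 36.1% of the 305 genes called lower. Among the largest changes it was present in 2 of 14 rises and 2 of 12 falls with a window. These 4 windows are shown because they hold the motif, which is in capitals and reads TTCCCA where it lies on the other strand. They are written 5' to 3' along the gene (RefSeq, GRCm38.p6), those of Dynlrb2 and Cd44 from genes that rose and those of Gpr83 and Hfe from genes that fell.
Dynlrb2, chr8:116504765-116505064, plus strand: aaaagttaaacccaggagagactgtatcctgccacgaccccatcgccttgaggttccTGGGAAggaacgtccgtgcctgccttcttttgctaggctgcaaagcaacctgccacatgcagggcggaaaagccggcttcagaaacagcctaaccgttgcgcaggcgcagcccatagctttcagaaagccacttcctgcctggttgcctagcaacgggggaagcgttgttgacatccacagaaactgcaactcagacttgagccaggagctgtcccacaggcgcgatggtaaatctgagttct
Cd44, chr2:102901616-102901915, minus strand: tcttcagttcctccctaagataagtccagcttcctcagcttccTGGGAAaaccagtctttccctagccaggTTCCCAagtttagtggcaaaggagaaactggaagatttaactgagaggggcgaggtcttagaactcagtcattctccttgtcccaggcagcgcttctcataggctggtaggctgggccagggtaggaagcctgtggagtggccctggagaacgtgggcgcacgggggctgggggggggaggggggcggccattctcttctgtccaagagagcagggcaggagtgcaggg
Gpr83, chr9:14859960-14860259, plus strand: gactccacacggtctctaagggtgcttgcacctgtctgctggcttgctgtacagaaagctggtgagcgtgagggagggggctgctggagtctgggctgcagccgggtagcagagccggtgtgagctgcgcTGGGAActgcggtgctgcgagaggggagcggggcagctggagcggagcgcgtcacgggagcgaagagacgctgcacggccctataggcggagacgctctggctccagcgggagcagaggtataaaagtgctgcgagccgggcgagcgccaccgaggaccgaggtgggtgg
Hfe, chr13:23710805-23711104, minus strand: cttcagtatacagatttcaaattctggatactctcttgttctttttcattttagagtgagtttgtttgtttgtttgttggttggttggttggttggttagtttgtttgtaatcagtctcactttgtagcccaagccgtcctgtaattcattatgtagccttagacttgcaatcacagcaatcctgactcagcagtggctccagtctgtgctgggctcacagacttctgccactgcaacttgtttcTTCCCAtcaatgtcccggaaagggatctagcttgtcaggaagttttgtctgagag
The window of Cd44 held 2 matches and each of the other 3 windows held 1. A match is a run of letters and was not measured as a binding site, and which build the array annotation used was not given in the sources used here.

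Listed genes of the GIMAP and MS4A families, which encode GTPases and membrane proteins of lymphocytes, were higher in Ik1ER cells as a group. The list does not hold the whole MS4A family. Ms4a1 of that family stood on the B cell list instead and was not called, as given below. Of 14 measured members 9 were called higher and 0 lower, beside 2.92% of all genes called higher and 2.18% called lower, and the list's median difference was 1.11 against -0.0025 over all genes. The list was chosen with earlier results of these data known and holds Ms4a4b, Ms4a4d and Gimap7 of the largest rises. Its share of calls therefore describes the list and tests nothing. Besides Ms4a4b, Ms4a4d and Gimap7, the called members were Ms4a6b (1.58), Gimap8 (1.57), Ms4a6d (1.42), Gimap6 (1.37), Gimap1 (0.85) and Ms4a4c (0.57). Ms4a6b read 8.19 and 8.14 in MigR1 and 9.77 and 9.71 in Ik1ER cells (SE 0.08, limma adjusted p = 0.000149), so that the arrays within each line nearly coincided. The 5 members that were not called, Gimap5 (0.45), Gimap4 (0.39), Gimap9 (0.36), Gimap3 (0.15) and Ms4a6c (0.11), also lay above 0. With ethanol the list's median was -0.05 and 3 of 14 lay above 0. In the RefSeq gene order the listed MS4A members lie within 7 genes on chromosome 19 and the listed GIMAP members within 8 genes on chromosome 6. Probe sets of such related genes can read each other's transcripts, which was not tested. The probe sets that stood for Ms4a4c and Ms4a6d carry the array maker's suffix for probes shared among transcripts. Ms4a4c read a mean of 3.13 in MigR1 and 3.71 in Ik1ER cells, both under the highest Bacillus control mean. Of the other 2 probe sets of Ms4a6d, which have no such suffix and are dim, 1 was called (1.61, limma adjusted p = 0.00123) and 1 differed by -0.05. Gimap1 and Gimap8 lost their calls without MigR1 4OHT replicate 2 or without Ik1ER 4OHT replicate 1 or 2 (adjusted p at most 0.163 and 0.0725), and Ms4a4c without MigR1 4OHT replicate 1 or 2 or without both Ik1ER replicate 2 arrays (at most 0.0742).

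Genes of the T cell receptor complex were called in both directions. Of 16 measured genes of the complex and its proximal signalling, 5 were called higher and 2 lower, beside 2.92% and 2.18% of all genes, with a list median of 0.24. Cd8a and Cd8b1, which encode the chains of the CD8 coreceptor and are neighbours on chromosome 6, were higher. Cd8a read 9.60 and 9.37 in MigR1 and 11.60 and 10.47 in Ik1ER cells (1.55, SE 0.32, limma adjusted p = 0.034), and Cd8b1 read 8.89 and 8.90 against 10.66 and 9.75 (1.31, SE 0.26, adjusted p = 0.0294). In both genes the Ik1ER arrays differed from each other by a large part of the line difference, with replicate 1 the higher. Cd4, the other coreceptor gene, was higher by 0.63 (SE 0.14, adjusted p = 0.0453), Cd2 by 1.15 (SE 0.15, adjusted p = 0.00521), and Ptprc, which encodes the phosphatase CD45, by 0.35 (SE 0.07, adjusted p = 0.0306). Cd3g and Cd3d, which encode CD3 chains that carry the receptor's signal, were lower, with differences of -0.72 (SE 0.09, adjusted p = 0.00502) for the first and -0.54 (SE 0.11, adjusted p = 0.0291) for the second. Cd3g went from 13.04 and 12.93 to 12.37 and 12.16. Cd3e (-0.26) and Cd247 (0.28), which encode the other CD3 chains, and Zap70 (0.01) and Lat (0.13), which signal downstream, were not called. Cd2 and Cd3g kept their calls without each array in turn. Cd8a and Cd8b1 lost theirs without any 1 of the 4 MigR1 arrays (adjusted p at most 0.200 and 0.157). Cd3d and Ptprc lost theirs without any 1 of the MigR1 arrays or without Ik1ER 4OHT replicate 2, and Ptprc also without Ik1ER 4OHT replicate 1 (up to 0.172 and 0.164). Cd4 lost its call without any array other than Ik1ER 4OHT replicate 2 (at most 0.248).

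Genes of thymocyte maturation and homing were higher in Ik1ER cells where they were called. Of 15 measured members 7 were called higher and 0 lower, beside 2.92% and 2.18% of all genes, and the median was 0.45. Cd69, an early activation and tissue-retention molecule, read a mean of 4.30 in MigR1 cells, under the highest Bacillus control mean, and 5.80 in Ik1ER cells (limma adjusted p = 0.0335). Besides Cxcr6 and Cd69, these were Foxo1, a transcription factor of T cell quiescence and homing (1.12, SE 0.15), and its target Klf2 (0.60, SE 0.09). Foxo1 read 7.78 and 7.63 in MigR1 and 8.58 and 9.07 in Ik1ER cells (limma adjusted p = 0.006), and 2 more of its probe sets were called higher, by 1.19 and 1.02. Itgae and Itgb7, which encode the integrin pair that binds E-cadherin, were higher by 1.12 (SE 0.15) and 0.40 (SE 0.08), and the adhesion receptor gene Slamf6 by 0.84 (SE 0.13). The chemokine receptor gene Ccr9 differed by 1.48 but was not called (adjusted p = 0.184), and S1pr1, the receptor of thymic exit, differed by -0.14, from a level below the highest Bacillus control mean. Cxcr6 kept its call without each array in turn. Foxo1 and Itgae lost theirs without MigR1 4OHT replicate 2 (adjusted p at most 0.0591 and 0.0556), and Klf2 and Slamf6 without MigR1 4OHT replicate 1 or 2 (at most 0.0848 and 0.082). Cd69 lost its call without any 1 of the MigR1 arrays or without Ik1ER 4OHT replicate 2 (up to 0.173), and Itgb7 without any 4OHT array or any Ik1ER array (at most 0.191).

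**Figure D3:**
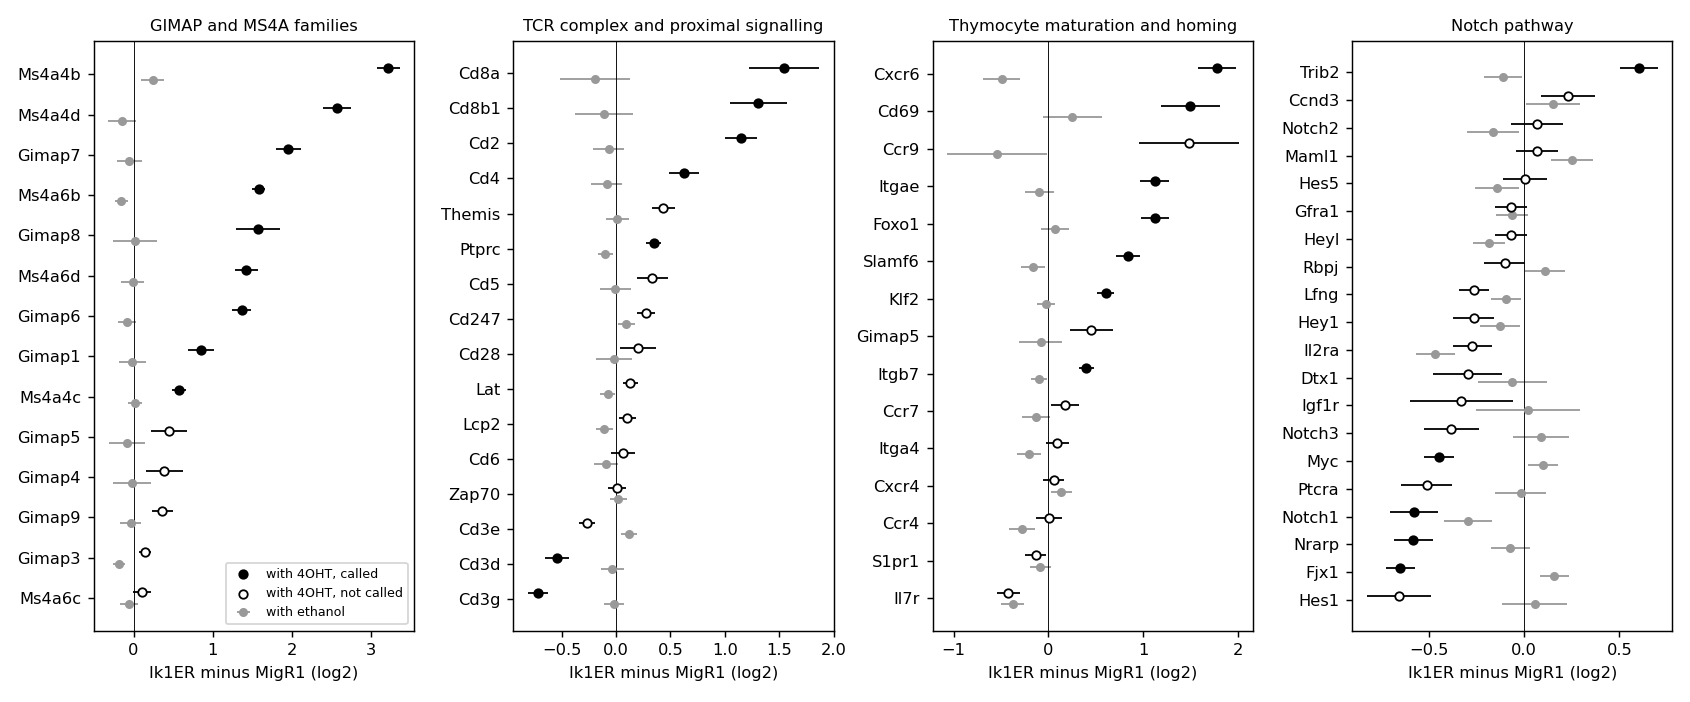
Log2 difference between Ik1ER and MigR1 cells (horizontal axis) for the measured members (rows) of the GIMAP and MS4A, T cell receptor, maturation and Notch lists, with 4OHT in black (filled where called, open where not) and with ethanol in grey, and with standard errors from limma as bars. Ms4a6b lies at 1.58 with 4OHT and -0.15 with ethanol, while Cd8a, at 1.55 with 4OHT, has a wide bar (SE 0.32).

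Notch pathway genes tended to lower values, though few passed the test. Of 20 measured members 4 were called lower and 1 higher, beside 2.18% and 2.92% of all genes, with a median of -0.27 and 15 members below 0. The receptor gene Notch1 read 12.22 and 12.21 in MigR1 and 11.42 and 11.85 in Ik1ER cells (-0.58, SE 0.13, limma adjusted p = 0.0403). The target genes called lower were Fjx1 (-0.65, SE 0.08, adjusted p = 0.0034), the feedback regulator Nrarp (-0.58, SE 0.10, adjusted p = 0.0183) and Myc, the growth-promoting transcription factor (-0.45, SE 0.08, adjusted p = 0.0176). Trib2, a pseudokinase gene on the same list, was higher by 0.60 (SE 0.10, adjusted p = 0.0145). The targets Hes1 (-0.66, adjusted p = 0.0748), Ptcra (-0.51, adjusted p = 0.0774), Notch3 (-0.38, adjusted p = 0.221) and Dtx1 (-0.30, adjusted p = 0.462) were below 0 and not called. With ethanol the list's median was -0.06. Notch1 differed there by -0.29, the same direction as with 4OHT, and was not called (limma adjusted p = 0.920). The change of its line difference between treatments was -0.28 (SE 0.18, limma adjusted p = 0.645). Fjx1 kept its call without each array in turn. Nrarp lost it without MigR1 4OHT replicate 1 or 2 or Ik1ER 4OHT replicate 1 (adjusted p up to 0.126). Myc lost it without any 1 of the 4OHT arrays (at most 0.141), and Trib2 without MigR1 4OHT replicate 1 or 2 or Ik1ER 4OHT replicate 2 (adjusted p up to 0.104). Notch1 lost it without any array other than Ik1ER 4OHT replicate 2 (at most 0.192).

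Of 16 measured early thymocyte genes 1 was called higher, Cd44, and 2 lower, Mycn and Dntt, beside 2.92% and 2.18% of all genes, with a median of -0.11. Mycn, a relative of Myc, read 13.80 and 13.83 in MigR1 and 12.90 and 13.17 in Ik1ER cells with 4OHT (-0.78, SE 0.11, limma adjusted p = 0.00737). Its reading was also lower in Ik1ER cells with ethanol, at 12.77 and 12.98 against 13.80 and 13.79, and the difference of -0.92 was not called there (adjusted p = 0.267). The change of the line difference between treatments was 0.14 (SE 0.15, adjusted p = 0.831). Its 2 dimmer probe sets, both below the highest Bacillus control mean, differed by -0.10 and -0.07 with 4OHT. Dntt, which encodes the terminal transferase of receptor gene rearrangement, was lower (-0.45, SE 0.08, adjusted p = 0.0207), while the recombinase genes Rag1 (0.03) and Rag2 (-0.11) were not called. Further probe sets of Dntt, above the highest Bacillus control mean, differed by -0.04 and -0.38 and were not called. Mycn lost its call without MigR1 4OHT replicate 1 or 2 (adjusted p at most 0.0644), and Dntt also without Ik1ER 4OHT replicate 1 (at most 0.136).

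Few transcription factors of the T lineage were called. Of 14 measured T lineage factors 1 was called higher, Runx3, which acts in the CD8 lineage, beside 2.92% of all genes, and the list's median was 0.17. Runx3 read 6.60 and 6.43 in MigR1 and 7.39 and 8.09 in Ik1ER cells (1.22, SE 0.28, limma adjusted p = 0.0466). Its other probe set, also above the highest Bacillus control mean, differed by 0.07 (adjusted p = 0.767). Leaving out any MigR1 array or Ik1ER 4OHT replicate 2 ended this call (adjusted p at most 0.241). Gata3 (0.51, adjusted p = 0.0917), Bcl11b (0.14) and Ets1 (0.01) were not called. Of the 5 Ikaros family genes, Ikzf3 (Aiolos) was higher by 0.42 (SE 0.07, adjusted p = 0.012) and lost its call without MigR1 4OHT replicate 1 or 2 or without both Ik1ER replicate 2 arrays (at most 0.0954). With the mean over its probe sets Ikzf3 differed by 0.17 (adjusted p = 0.450). Ikzf2 (0.24), Ikzf4 (-0.11) and Ikzf5 (0.14) were not called, and the 2 probe sets of Ikzf1 differed by 2.52 and -0.17, as given above. Partners that Ikaros recruits, the 13 NuRD genes and the 8 measured genes of Polycomb repressive complex 2, gave 0 calls, with medians of 0.03 and 0.06.

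Inhibitors of the cell cycle and p53 target genes were higher where they were called. Of 14 measured inhibitors 5 were called higher and 0 lower, beside 2.92% and 2.18% of all genes, with a median of 0.36 and 13 above 0, and 12 of 14 were also above 0 with ethanol. They were Cdkn2d, which inhibits the G1 cyclin-dependent kinases (0.80, SE 0.11, limma adjusted p = 0.0057), the antiproliferative genes Btg1 (0.60) and Btg2 (0.45), and the retinoblastoma family genes Rb1 (0.58) and Rbl2 (0.55). Cdkn2d went from 9.57 and 9.39 to 10.26 and 10.31. The kinase inhibitor genes Cdkn1a (0.10, adjusted p = 0.868) and Cdkn1b (0.31, adjusted p = 0.338) were not called. Cdkn2d lost its call without MigR1 4OHT replicate 2 (adjusted p at most 0.0536), Rb1 and Btg1 without MigR1 4OHT replicate 1 or 2 (at most 0.0721 and 0.0801), and Btg2 also without Ik1ER 4OHT replicate 1 (at most 0.144). Rbl2 lost it without any 1 of the MigR1 arrays or without Ik1ER 4OHT replicate 2 (at most 0.189).

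Of 13 measured p53 targets 6 were called higher and 0 lower, beside 2.92% and 2.18% of all genes, with a median of 0.35. Trp53inp1, which encodes a stress-induced nuclear protein, read 11.37 and 11.24 in MigR1 and 12.28 and 12.34 in Ik1ER cells (1.01, SE 0.10, limma adjusted p = 0.00132), and it kept its call without each array in turn. The others were Gadd45a (0.59), the death receptor gene Fas (0.57), Sesn1 (0.47), Btg2, which is on both lists, and Ccng1 (0.35). With ethanol the list's median was -0.05, with 5 of 13 above 0, while Gadd45a differed by 0.31 and Ccng1 by 0.18. Further probe sets of Ccng1, above the highest Bacillus control mean, differed by 0.21 and 0.34 with 4OHT and were not called. Mdm2, the ubiquitin ligase of p53 (0.31, adjusted p = 0.215), the apoptosis gene Bbc3 (0.28, adjusted p = 0.104) and Cdkn1a were not called. Gadd45a lost its call without MigR1 4OHT replicate 2 (adjusted p at most 0.0902), Fas also without MigR1 4OHT replicate 1 or Ik1ER 4OHT replicate 1 (at most 0.134), and Sesn1 without any 1 of the 4OHT arrays (at most 0.151). Ccng1 lost it without any array other than Ik1ER 4OHT replicate 1 (at most 0.184). Of 17 genes of G2 and mitosis and 18 of S phase and replication 0 were called, beside 5.1% of all genes. Lists this small can give 0 calls at that share. The median of the mitosis list was 0.15, with 15 of 17 above 0 with 4OHT and 7 with ethanol. The S phase list had a median of 0.0048, with 9 of 18 above 0 under either treatment. Of 16 ribosome biogenesis genes, a set that MYC drives, 15 lay below 0, with a median of -0.17. With ethanol 4 of the 16 lay above 0, with a median of -0.05, and the part of Myc was not tested. The 1 called lower with 4OHT, beside 2.18% of all genes, was Polr1b, which encodes a subunit of RNA polymerase I (-0.36, adjusted p = 0.0385). Leaving out any of the 8 arrays ended this call (at most 0.192).

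Interferon response genes were called in both directions, 5 lower and 4 higher of 16 measured, beside 2.18% and 2.92% of all genes, with a median of 0.03. The lower ones were Ifi202b, Ifi204, Ifitm2, the antiviral GTPase gene Mx1 (-1.12, SE 0.15, limma adjusted p = 0.00705) and the RNA sensor gene Ifih1 (-0.56, SE 0.12, adjusted p = 0.0442). Mx1 went from 5.37 and 5.39 to 4.18 and 4.34, below the highest Bacillus control mean. The higher ones were Ddx58, which encodes the RNA sensor RIG-I (0.68, SE 0.07, adjusted p = 0.00184), Irf7 (0.38), Rsad2 (0.35) and Irf1 (0.33). Ddx58, Ifi204 and Ifitm2 kept their calls without each array in turn. With the mean over its 3 probe sets Ddx58 differed by 0.30 and was not called (adjusted p = 0.0716), and its 2 dimmer probe sets, both under the highest Bacillus control mean, differed by 0.26 and -0.06. Mx1 lost its call without MigR1 4OHT replicate 1 or 2 (adjusted p at most 0.0609). Ifih1 lost it without any 1 of the MigR1 arrays or of the Ik1ER 4OHT arrays (at most 0.224), and Irf7, Rsad2 and Irf1 without any 1 of the 8 arrays (at most 0.208, 0.214 and 0.215).

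Immediate early and activation genes were also divided, with 4 of 18 called higher and 3 lower, beside 2.92% and 2.18% of all genes, and a median of 0.04. Jund, a member of the AP-1 factors, read 8.16 and 8.29 in MigR1 and 9.33 and 9.57 in Ik1ER cells (1.22, SE 0.10, limma adjusted p = 0.000804). Fos, its partner, read 4.83 and 4.79 against 5.91 and 6.90 (1.59, SE 0.35, adjusted p = 0.0406), with the 2 Ik1ER arrays far apart. Egr1 (0.75) and Nfkbia, which encodes the inhibitor of NF-kappaB (0.68), were higher, and Ier3 (-1.28, SE 0.16, adjusted p = 0.00502), Tnfaip3 (-0.42) and Ier2 (-0.36) were lower. A further probe set of Tnfaip3, above the highest Bacillus control mean, differed by -0.19 and was not called. Jund, Nfkbia and Ier3 kept their calls without each array in turn. Fos lost its call without any 1 of the MigR1 arrays or without Ik1ER 4OHT replicate 2 (adjusted p at most 0.199), and Egr1 without MigR1 4OHT replicate 1 or 2 or Ik1ER 4OHT replicate 2 (adjusted p up to 0.187). Tnfaip3 and Ier2 lost theirs without any 1 of the MigR1 arrays or of the Ik1ER 4OHT arrays (at most 0.200 and 0.186).

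Of 14 measured genes of cytokine and STAT5 signalling 1 was called higher and 1 lower, beside 2.92% and 2.18% of all genes. Both are feedback inhibitors, Socs1 (0.46, SE 0.07, limma adjusted p = 0.0117) and Socs3 (-0.62, SE 0.07, adjusted p = 0.00392). The receptor gene Il7r differed by -0.42 and was not called (adjusted p = 0.108). Of 12 BCL2 family genes 1 was called, beside 5.1% of all genes. It was Bcl2l2, which encodes a survival protein (-0.75, SE 0.11, adjusted p = 0.00789), while Bcl2 (-0.32), Mcl1 (0.25) and Bcl2l11 (0.66) were not called. The other probe set of Bcl2l2 above the highest Bacillus control mean differed by -0.15. Socs3 kept its call without each array in turn, and Socs1 and Bcl2l2 lost theirs without MigR1 4OHT replicate 1 or 2 (adjusted p at most 0.0917 and 0.0653), Socs1 also without both Ik1ER replicate 2 arrays. No gene was called among 12 genes of the estrogen receptor and its targets (median 0.03, Greb1 0.43 at an adjusted p of 0.0712), 12 of glycolysis (median -0.01), 13 of sterol biosynthesis (0.09) or 14 of the integrated stress response (-0.06). Lists this small can give no calls at the share of 5.1% over all genes. Of the other 3 probe sets of Greb1, 1 above the highest Bacillus control mean was called higher (0.52, limma adjusted p = 0.0198).

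**Figure D4:**
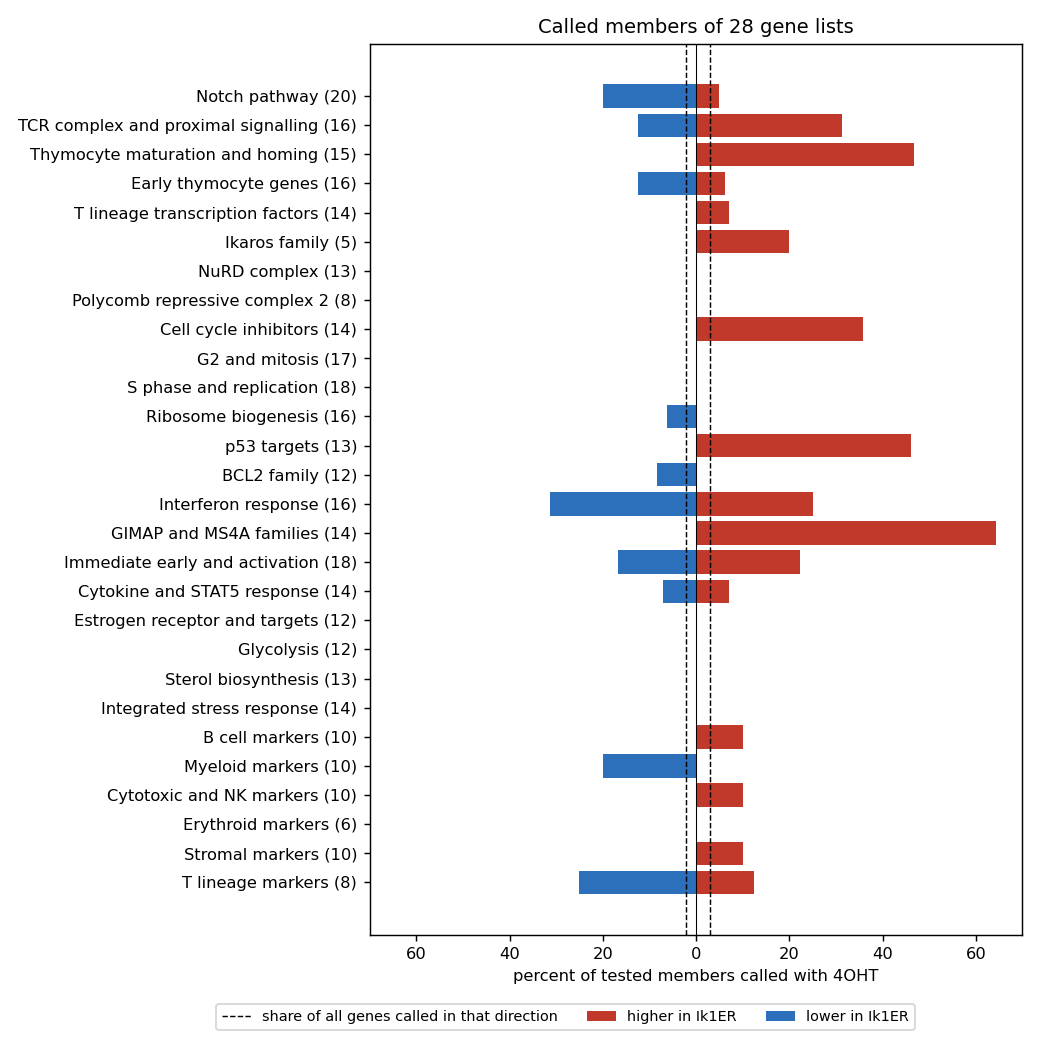
Percent of the tested members of each of the 28 gene lists (rows, number tested in brackets) called higher (right) or lower (left) in Ik1ER than in MigR1 cells with 4OHT, with dashed lines at the shares of all genes called higher (2.92%) and lower (2.18%). The GIMAP and MS4A list has the longest bar, with 9 of 14 members called higher and 0 lower, while the interferon list extends to both sides, with 4 higher and 5 lower of 16.

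Several of the largest falls were neighbours of the CD3 genes on chromosome 9, a grouping made after the values were seen. In the RefSeq gene order (GRCm38.p6) the run is Cd3g, Cd3d, Cd3e, Mpzl2, Mpzl3, Jaml, Scn2b and Scn4b, of which Jaml was not tested here. The 7 tested genes were all lower in Ik1ER cells, with differences of -0.72, -0.54, -0.26, -2.91, -0.77, -1.77 and -2.39 in that order, and 6 were called, Cd3e being the exception (limma adjusted p = 0.0936). Mpzl3, a relative of Mpzl2, went from a mean of 8.48 ± 0.02 to 7.71 ± 0.07 (SD, n = 2, SE of the difference 0.08, adjusted p = 0.0024). With ethanol these 7 genes differed by -0.11 to 0.32. The flanking genes Kmt2a (-0.02), Atp5l (-0.21), Ube4a (-0.14), Tmprss4 (-0.14) and Il10ra (-0.36, adjusted p = 0.326) also lay below 0 and were not called. Il10ra differed by -0.79 with ethanol, and with 4OHT it read below the highest Bacillus control mean in both lines. The run was chosen for these values, so that they describe it and test nothing.

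**Figure D5:**
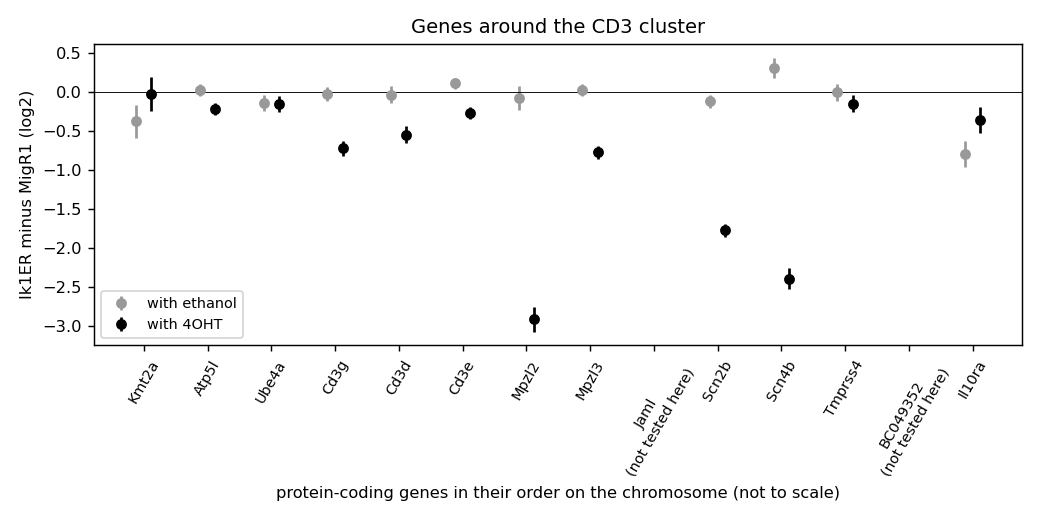
Log2 difference between Ik1ER and MigR1 cells (vertical axis) with 4OHT and with ethanol for genes in their RefSeq order around the CD3 genes on chromosome 9 (horizontal axis, order only and not distance), with standard errors from limma as bars. From Cd3g to Scn4b the 4OHT differences are below 0, down to -2.91 at Mpzl2, while those with ethanol lie between -0.11 and 0.32.

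The test of the difference between the line differences asked for which genes the signed difference between the lines was not the same with 4OHT as with ethanol, in either direction. Among the genes called with 4OHT, the largest rises that it also called were Ms4a4b (2.97, SE 0.20, limma adjusted p = 0.00138), Ms4a4d (2.71), Pou2af1 (1.97), Myl4 (2.05) and Gimap7 (2.01). The largest falls that it also called were Mpzl2 (-2.84, SE 0.23, adjusted p = 0.0025), Lmcd1 (-3.03), Scn4b (-2.71), Ifi204 (-2.66) and Rnf182 (-3.04). For Rnf182 the line difference was 0.96 with ethanol and -2.08 with 4OHT, so that its direction turned. Of the 229 genes, 5 were not called with 4OHT: Adm, Pax7, Npnt, Efhd1 and Ppfibp1. Adm, which encodes the peptide hormone adrenomedullin, had the smallest p with ethanol (-1.10, SE 0.12, adjusted p = 0.267), where it read 6.12 and 5.78 in MigR1 and 4.91 and 4.78 in Ik1ER cells, and differed by -0.07 with 4OHT. Its 4OHT arrays lay between 4.36 and 4.54 in both lines. Pax7, a muscle transcription factor gene, was higher with ethanol by 0.97 (SE 0.16, adjusted p = 0.800) and differed by -0.45 with 4OHT. Npnt (0.47 and -0.23), Ppfibp1 (0.38 and -0.31) and Efhd1 (-0.28 and 0.30) likewise differed in opposite directions with ethanol and 4OHT. The number called by this test ranged from 51 to 269 when 1 array was left out, the lowest without MigR1 4OHT replicate 2. It was below 229 by over 1.5 times without any 1 of the MigR1 arrays (51 to 78) or of the Ik1ER ethanol arrays (103 and 109).

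Markers of other cell types were mostly near background in both lines. Above the highest Bacillus control mean in at least 1 line were 4 of 10 B cell markers, 3 of 10 myeloid, 2 of 10 cytotoxic and natural killer, 2 of 6 erythroid and 3 of 10 stromal markers. The calls in these lists stand beside 2.92% of all genes called higher and 2.18% called lower. Lists this small can give 0 or 1 call at those shares. The mean level over the B cell list was 5.10 and 5.17 on the MigR1 and 5.41 and 5.42 on the Ik1ER 4OHT arrays. Pou2af1 was the 1 member called, while Cd79a (0.04), Pax5 (-0.02), Ebf1 (0.03) and Ms4a1 (0.01), which define B cells, were not. The myeloid list averaged 5.03 and 5.07 against 4.79 and 4.91. Cd14, a coreceptor for bacterial lipopolysaccharide, was called lower (-1.12, SE 0.10, limma adjusted p = 0.000891), as was the lysozyme gene Lyz2 (-0.50, SE 0.11, adjusted p = 0.0459), while Csf1r (-0.15) and Itgam (0.31) were not called. The cytotoxic list averaged 5.03 and 5.09 against 5.09 and 5.18, and Gzma, a granzyme gene, was called higher (0.75, SE 0.12, adjusted p = 0.0136), while Gzmb (0.12), Prf1 (0.39) and Ncr1 (-0.20) were not. Of the stromal list, which averaged 5.43 and 5.49 against 5.52 and 5.57, Pecam1, an adhesion molecule also found on leukocytes, was called higher (0.60, SE 0.09, adjusted p = 0.00992). The erythroid list averaged 5.27 and 5.32 against 5.17 and 5.26, with 0 calls. The part of other cell types in the differences was not tested further. Cd14 kept its call without each array in turn. Lyz2 lost it without any array other than Ik1ER 4OHT replicate 2 (adjusted p at most 0.251), Gzma without MigR1 4OHT replicate 2, without Ik1ER 4OHT replicate 1 or without both Ik1ER replicate 2 arrays (at most 0.0973), and Pecam1 without MigR1 4OHT replicate 1 or 2 (at most 0.0808).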

How the data were processed

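Per the labels' protocols, biotin-labelled targets from total RNA of the 8 samples were put on Affymetrix arrays. The authors deposited log2 expression values, which the submitters' processing notes credit to RMA. Version, probe set definitions and build were not given in the sources used here. Such values compress changes of dim genes and hide a global shift. Of 45101 probe sets, 34945 have 1 gene symbol, 932 several and 9160 none listed, and 64 are controls. The probe set of highest mean stood for its gene (those ending in _x_at as a last resort), for 18193 genes in all, with no filter.

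Group means over all 8 arrays were fitted with lmFit and eBayes of limma 3.58.1 in R 4.3.3 (4 residual degrees of freedom), for the line differences with 4OHT and with ethanol and for the difference between them. P-values were adjusted by Benjamini and Hochberg over all genes, and an adjusted p under 0.05 was called. The fit was tested on simulated data. Probe sets of Ikzf1, Esr1 and other second probe sets used p-values over all probe sets. Errors are standard errors from limma unless named SD. Precision is limited by the number of arrays.

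Genes named are the 15 largest rises and the 15 largest falls among called genes whose 4OHT arrays did not overlap, without predicted or clone-named genes. The rule further takes the 5 largest of each sign also called the same way with ethanol, where any were, and the 5 largest that the difference test also called, the 4 members of smallest p and all called members of each list, the Ikaros family and Esr1, and any feature where a count is at most 5. Of the 368 genes of the 28 lists 345 were measured, and further uncalled members were named for their function. Mpzl3, the flanking genes of the CD3 run and the genes of smallest p with ethanol were named after their values were seen. The comparison, lists and rules were chosen with earlier results of these data known. Alternatives are given in the closing section. Promoter windows came from RefSeq (GRCm38.p6).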

Additional observations from a re-analysis of the deposited data

Results flagged for a closer look

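The difference between the lines was not the same with 4OHT as with ethanol for 229 genes, by limma's test of that difference (adjusted p under 0.05), and those named in the text are given here. The values below are that difference on the log2 scale, 4OHT minus ethanol. Positive values among members of the MS4A and GIMAP families were those of Ms4a4b (2.97), Ms4a4d (2.71), Gimap7 (2.01), Ms4a6b (1.73), Gimap6 (1.45) and Ms4a6d (1.43). Other T cell surface molecules with a positive value were Cxcr6 (2.27), Cd2 (1.22), Itgae (1.22), Slamf6 (1.00) and Pecam1 (0.79). Regulators with a positive value were Pou2af1 (1.97), Maf (1.95), Jund (1.13), Trp53inp1 (0.83), Ddx58 (0.73) and Socs1 (0.59). The remaining positive values were Tktl1 (2.06), Myl4 (2.05), Dynlrb2 (1.88), Serpini1 (1.83), Igfbp7 (1.77), Arhgap20 (1.63), Kcna2 (1.61), Adm (1.03) and Efhd1 (0.58). Adm differed by -0.07 between the lines with 4OHT and by -1.10 with ethanol.

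Negative values were found in the run of genes next to the CD3 genes, Mpzl2 (-2.84), Scn4b (-2.71), Scn2b (-1.66), Mpzl3 (-0.80) and Cd3g (-0.70). Interferon-inducible genes with a negative value were Ifi204 (-2.66), Ifitm2 (-2.14) and Mx1 (-1.29). The remaining ones were Rnf182 (-3.04), Lmcd1 (-3.03), Cryab (-2.28), Lhfp (-2.27), Hfe (-2.19), Gpr83 (-2.12), Gfi1b (-2.06), Uaca (-2.04), Cntnap2 (-1.66), Pax7 (-1.42), Cd14 (-1.30), Fjx1 (-0.81), Npnt (-0.70) and Ppfibp1 (-0.69). With 2 arrays per group no array could be set against the rest of its group.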

How the results depend on the processing

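The 928 genes called between the lines with 4OHT became 429 with only the 4 arrays compared, 594 without both replicate 2 arrays of the Ik1ER line, 141 with an absolute log2 difference of at least 1 and 346 at an adjusted p under 0.01. Leaving out 1 array gave 242 to 812. The other 8 settings stayed within 1.5 times: dim genes left out (1191), trend and robust eBayes (1343), repeated quantile normalization (1054), centred arrays (887), the mean over probe sets (952), every probe set (961), the 3' to 5' difference as a covariate (1284) and the replicate block. The count of 0 with ethanol stayed 0 in every setting, leaving out 1 array included, except the mean over probe sets, with 1 gene (Ikzf1, 1.39, limma adjusted p = 0.0122), and the covariate, with 1 gene (Mycn, -0.93, adjusted p = 0.0372). The 229 genes of the difference test became 439 with trend and robust eBayes, 100 without both replicate 2 arrays of the Ik1ER line, 575 with the covariate, 112 at an absolute log2 difference of at least 1 and 56 at an adjusted p under 0.01. Leaving out 1 array gave 51 to 269. This test needs all 4 groups and was not run on the arrays of 2 groups. The replicate numbers were not shown to pair arrays across the lines, where correlations of replicate differences ran from -0.0687 (the groups with 4OHT) to 0.102. Within a line they were 0.448 in Ik1ER and 0.269 in MigR1 cells, and a pairing within each line was not fitted. With the replicate number as a block 1082, 0 and 335 genes were called with 4OHT, with ethanol and in the difference, and 889 of the 928 were shared. Of the 89 named called genes none changed direction in a setting that tested it. With dim genes left out 72 of the 89 were tested and kept their calls. The calls lost were 32 with only the 4 arrays compared, 21 without both Ik1ER replicate 2 arrays, 7 with the mean over probe sets (Cd4, Ddx58, Dntt, Ikzf3, Mycn, Notch1 and Rbl2), 3 with trend and robust eBayes (Cd8a, Irf7 and Rsad2), 3 with repeated quantile normalization (Cd4, Irf1 and Lyz2), 3 with centred arrays (Ifih1, Lyz2 and Tnfaip3), 3 with the block (Ifih1, Irf1 and Rsad2) and 0 with the covariate. Leaving out 1 array ended 9 to 47 calls. Ikzf1, not called at -0.17, reversed to 1.18 with the mean over its probe sets. The cause of these changes was not tested. Readings near the Bacillus controls limit the differences of dim genes, such as Ms4a4d and Ifi204, whose lower group read below the highest control mean.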
